A study of Homo sapiens with 5 samples.

Results

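IST1 and the genes of the ESCRT-III machinery were followed here at single poly(A) sites in H9 cells, an established human embryonic stem cell line, after editing of the gene for CFIm25. The 8 genes were IST1, CHMP1A, CHMP2A, CHMP2B, CHMP4B, CHMP5, VPS4A and VPS4B, and they were chosen with the results of this comparison known. All rows of the poly(A) site table that carry one of these gene names were taken, which gave 13 sites of 7 genes out of 29996 sites and 12693 gene identifiers. All 13 sites are annotated as 3' UTR. CHMP2A has no row under its name and is described apart from the others. Because IST1 was picked for its shift between 3' UTR sites, and the other genes beside it, their values are given as a description and without p-values. Members past a threshold are counted in places, and nothing is read from those counts.

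The study sequenced the 3' ends of poly(A)+ RNA (QuantSeq Rev 3'-seq) in 5 libraries of untreated cells grown in mTeSR medium, 3 labelled CFIm25 KO and 2 labelled control. The CFIm25 KO libraries come from H9 clones made with CRISPR-Cas9 and guide RNAs against NUDT21, the gene of CFIm25, and the controls from H9 clones that went through the same transfection with the empty CRISPR vector. According to the study, each edited line is a single clone that still makes a reduced amount of a CFIm25 protein with a short N-terminal deletion, so KO is used here as the name of the group. Replicates are therefore clones, and what sets one clone apart from the next is part of every contrast.

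ESCRT-III proteins assemble into filaments, mostly on the inner side of narrow membrane necks, and cut these necks. Cells use them to sort receptors into the vesicles of late endosomes, to separate daughter cells at the end of division and to reseal the nuclear envelope. CHMP4B is a main filament subunit, CHMP2A and CHMP2B act late in assembly, CHMP1A, CHMP5 and IST1 are accessory or regulatory subunits, and the ATPases VPS4A and VPS4B take the filaments apart. CFIm25 is the RNA-binding subunit of cleavage factor Im, which recognises UGUA elements ahead of many poly(A) sites, and its loss has moved many transcripts to shorter 3' UTRs in other human cell lines. For the edited H9 cells, the study itself reported that changes in poly(A) site choice across the transcriptome were insignificant.

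The guides define the edited group, so they are shown with the adjacent PAM in capitals. Each of the 3 designed guides matched the GRCh37 genome exactly at 1 position, within the coding sequence of NUDT21, which lies on the minus strand of chromosome 16. Guide 1 was at chr16:56485077-56485096 on the plus strand, guide 2 at chr16:56485053-56485072 on the plus strand and guide 3 at chr16:56485079-56485098 on the minus strand, so guides 1 and 3 overlap on opposite strands. Which guide gave which clone is not used here.
Guide 1: cagccggtctgcgagcgattGGG
Guide 2: ccgaactgagtgaccccccgGGG
Guide 3: ccaatcgctcgcagaccggcTGG

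The libraries held 5684809 to 7783102 reads in CFIm25 KO and 5203908 and 5243225 in control, with a median of 21 to 31 reads per site. Levels are given as counts per 1000000 reads with TMM scaling (CPM), over all sites of the table for a site and over all sites assigned to genes for a gene. NUDT21 stood at 130.3, 128.5 and 132.6 CPM in CFIm25 KO and at 222.6 and 221.2 CPM in control, a log2 fold change of -0.77 ± 0.11 (SE; edgeR quasi-likelihood test, Benjamini-Hochberg adjusted p = 0.033). Reads at the 3' end do not read the edited stretch, so this level checks the labels only indirectly. Of 11 embryonic stem cell markers all 11 had a site, and they summed to 5142 to 5229 CPM in CFIm25 KO, against 5436 and 3638 CPM in control. LIN28A, an RNA-binding protein of stem cells, stood at 747 CPM in control 2, against 2500 CPM in control 1, and the stem cell gene ZFP42 at 0, 0 and 0.20 CPM in CFIm25 KO, against 8.74 and 9.38 CPM in control. Neural markers (3 of 6 with a site, none for PAX6, SOX1 or NEUROD1) summed to 110.8 to 344.5 CPM in CFIm25 KO and 92.3 to 105.3 CPM in control. OTX2 stood at 47.6, 136.8 and 11.4 CPM in CFIm25 KO, against 27.5 and 23.4 CPM in control. SIX3 stood at 5.89, 116.0 and 1.20 CPM in CFIm25 KO, against 0.83 and 1.07 CPM in control. NES stood at 90.9, 91.7 and 98.2 CPM in CFIm25 KO, against 77.0 and 67.8 CPM in control. SIX3 and OTX2 were thus highest in CFIm25 KO 2, and OTX2 in CFIm25 KO 3 lay below both controls. Markers of endoderm, mesoderm, trophoblast and fibroblast had sites for 1 of 6, 2 of 6, 2 of 5 and 3 of 6 genes, and their sums in CFIm25 KO spanned those in control. The defining genes SOX17, TBXT, CGA and COL3A1 had none. The part of these markers in the values of the ESCRT genes was not tested.

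IST1 encodes an ESCRT-III-like protein that binds VPS4 and is needed for the last step of cell division. Its reads ended at 2 sites of its 3' UTR, at 71929003 and 71930634 on the plus strand of chromosome 16 (GRCh38). The proximal site lies 2196 bp and the distal site 565 bp upstream of the annotated end of the gene, so the choice between them adds or removes 1631 bp of 3' UTR. The proximal site carried most IST1 reads in all 5 libraries, and its share was higher in CFIm25 KO.

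At the proximal site, 869, 802 and 616 reads were counted in CFIm25 KO clones 1 to 3, against 473 and 510 in the controls. At the distal site, 143, 157 and 127 reads were counted in CFIm25 KO, against 229 and 225 in control. The CFIm25 KO libraries therefore held fewer distal reads than either control although each of them was sequenced more deeply. The proximal share of the IST1 reads was 85.9%, 83.6% and 82.9% in CFIm25 KO (mean 84.1 ± 1.54, SD, n = 3) and 67.4% and 69.4% in control (mean 68.4 ± 1.42, SD, n = 2), a difference of 15.8 percentage points. The groups did not overlap, and the 95% Wilson intervals, which cover counting error only, ended no lower than 80.0% in CFIm25 KO and no higher than 72.6% in control.

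On the log2 scale, the proximal to distal ratio of IST1 was 2.60, 2.35 and 2.27 in CFIm25 KO, against 1.04 and 1.18 in control (0.5 read added to each site). The fitted shift, the log2 ratio in CFIm25 KO minus that in control, was 1.29 ± 0.21 (SE). A second description, the mean distance of the reads from the most upstream 3' UTR site, gave 230.5, 267.0 and 278.8 bp in CFIm25 KO and 532.0 and 499.3 bp in control. The difference of the means was -256.9 bp, so IST1 reads ended further upstream in CFIm25 KO.

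**Figure D1:**
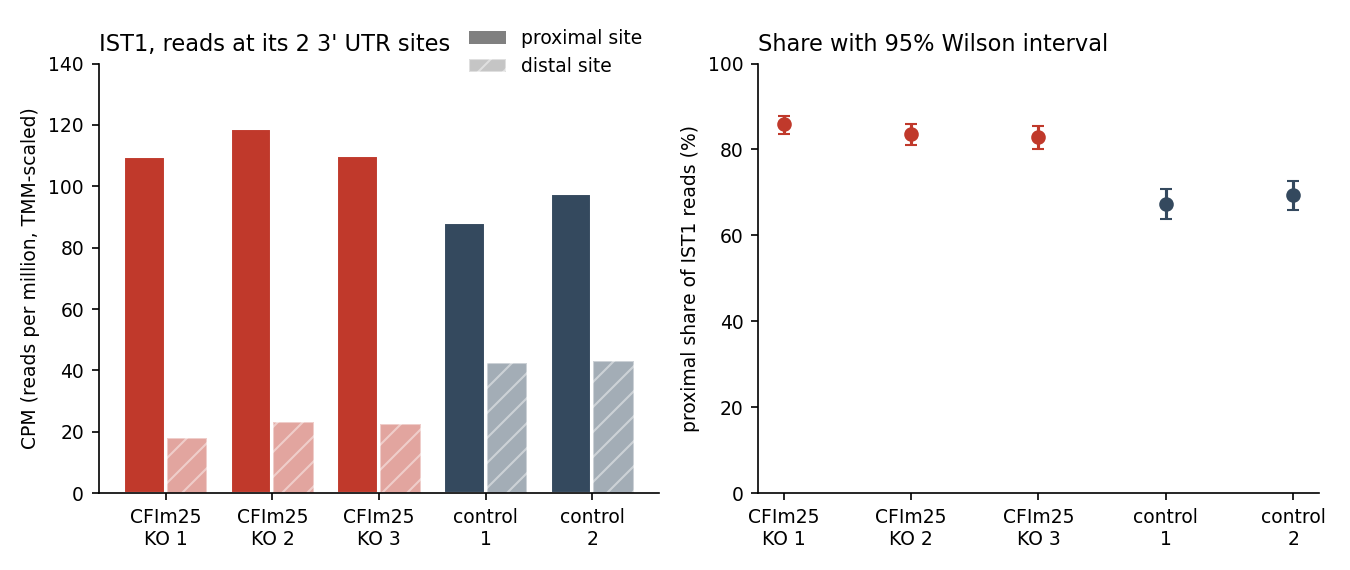
Left, CPM at the proximal (solid) and distal (hatched) 3' UTR site of IST1 in each CFIm25 KO (red) and control (blue-grey) library. Right, the proximal share of IST1 reads in percent with its 95% Wilson interval. The distal bars stand at 18.0 to 23.2 CPM in CFIm25 KO and at 42.6 and 43.1 CPM in control, and the proximal shares of the groups do not overlap.

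The levels of the IST1 sites were also compared one by one. The distal site had 18.0, 23.2 and 22.6 CPM in CFIm25 KO, against 42.6 and 43.1 CPM in control, with a log2 fold change of -1.01 ± 0.17 (SE). The proximal site had 109.4, 118.7 and 109.8 CPM in CFIm25 KO, against 87.9 and 97.7 CPM in control, with a log2 fold change of 0.28 ± 0.14 (SE). The mean distal level was thus 21.5 CPM lower and the mean proximal level 19.9 CPM higher in CFIm25 KO. Neither site's values overlapped between the groups, as was the case for 25.9% of all sites. Only the distal site passed the adjusted threshold of the site-level fit. It did not pass without a filter on low counts or without control 1, control 2 or CFIm25 KO 1. Nothing is read from that call, since IST1 was picked on this contrast. Summed over both sites, IST1 had 142.0, 157.0 and 148.9 CPM in CFIm25 KO and 146.1 and 156.6 CPM in control, values that overlapped, with a log2 fold change of -0.02 ± 0.12 (SE).

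Among all 3287 tandem pairs of 3' UTR sites that could be tested, 61 had a larger positive difference in proximal share than IST1, and the 5th to 95th percentile ran from -12.3 to 10.8 percentage points around a median of -0.94. Most of these pairs are shallow, with a median of 711 reads over the 5 libraries, against 4151 for IST1. Of the 260 pairs with at least as many reads as IST1, 1 had a larger absolute difference, and the 5th to 95th percentile ran from -8.03 to 5.46 percentage points. IST1 was 1 of 4 testable member pairs past the adjusted threshold of edgeR, where 0.152% of all pairs passed, and the same pair passed with limma on the library log2 ratios, where 0.0913% did. Nothing is read from that count or from the ranks of IST1 among the pairs, since IST1 was picked on this contrast. The count also fell to 0 of 4 without control 1, without control 2 or without CFIm25 KO 1. The fitted shift of IST1 remained between 1.20 and 1.36 with any 1 library left out.

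**Figure D2:**
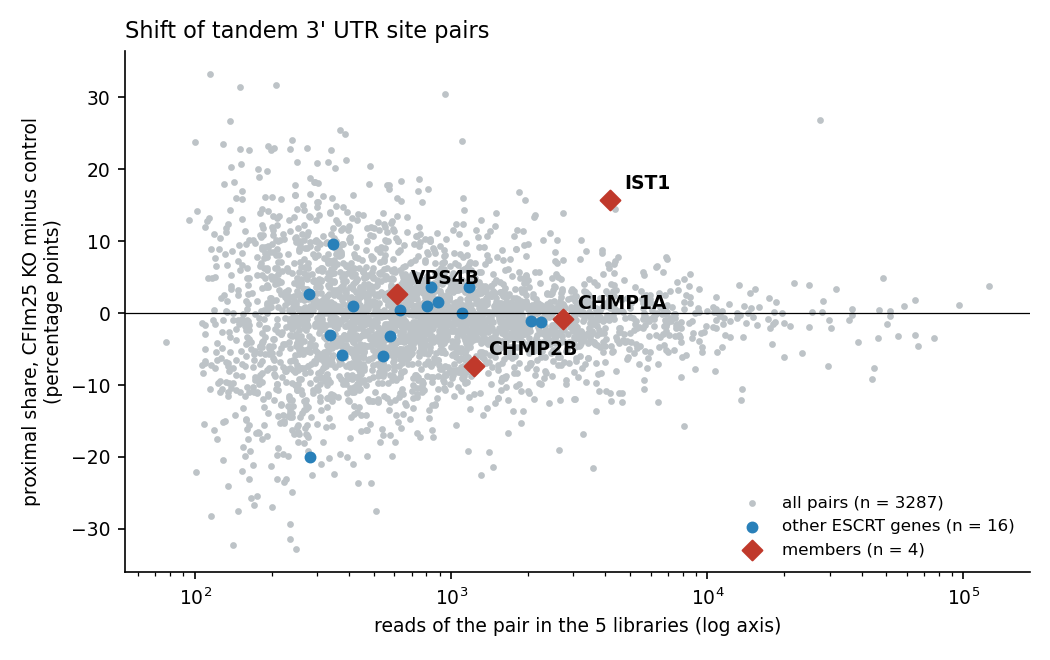
Difference in proximal share between CFIm25 KO and control in percentage points, against the reads of the pair in the 5 libraries (log axis), for all 3287 tested pairs (grey), 16 pairs of other ESCRT genes (blue) and 4 members (red diamonds). IST1 lies at 15.8 points and 4151 reads, where 1 of the 260 pairs of at least its depth lies further from 0. IST1 was picked for this difference, so nothing is read from its rank. CHMP2B lies below 0 at -7.32 points.

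The pairs whose log2 ratios, centred over the 5 libraries, lay nearest to those of IST1 were those of CTTNBP2NL, SERPINB9, TNRC6A, EARS2 and ASXL1, at root mean square distances of 0.15, 0.17, 0.19, 0.20 and 0.22 (log2), among 1816 pairs with at least 613 reads. Their mean proximal shares were 94.7% in CFIm25 KO against 88.9% in control for CTTNBP2NL, 38.4% in CFIm25 KO against 24.1% in control for SERPINB9, and 47.5% in CFIm25 KO against 31.9% in control for TNRC6A. EARS2 had 35.7% in CFIm25 KO against 22.3% in control, and ASXL1 51.1% in CFIm25 KO against 32.7% in control. These pairs were picked for their likeness over only 5 libraries, so their direction is set by the choice. Their sites were 761 to 1960 bp apart. That range holds the 1631 bp of IST1 and also the median of 956 bp over all tested pairs.

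CHMP2B, a late-acting filament subunit in which mutations cause a form of frontotemporal dementia, was the other member whose proximal shares did not overlap between the groups, and its difference had the opposite sign. It has 3 named sites on the plus strand of chromosome 3, at 87254218, 87254912 and 87255493, which lie 1338, 644 and 63 bp upstream of the annotated end. The pair was formed by the outer 2, which are 1275 bp apart. The proximal site had 36, 26 and 36 reads in CFIm25 KO, against 47 and 45 in control. The distal site had 334, 155 and 188 reads in CFIm25 KO, against 203 and 154 in control. Proximal reads were thus fewer in every CFIm25 KO library than in either control, from counts of at most 47 reads.

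The proximal share of CHMP2B was 9.73%, 14.4% and 16.1% in CFIm25 KO, against 18.8% and 22.6% in control, a difference of -7.32 percentage points. The Wilson intervals of CFIm25 KO 2 and 3 (9.99% to 20.2% and 11.8% to 21.4%) overlapped those of both controls (14.4% to 24.1% and 17.3% to 28.9%). The interval of CFIm25 KO 1 (7.11% to 13.2%) overlapped neither. Overlap of intervals is not a test of the difference between 2 libraries. The fitted shift was -0.80 ± 0.39 (SE) on the log2 scale. It was -0.51 without CFIm25 KO 1, with a range of -0.999 to -0.513 over the 5 libraries left out in turn. It did not pass the adjusted threshold, and nothing is read from that, since the members were chosen with this contrast known. The mean distance of the reads from the most upstream site was 1125, 1085 and 1059 bp in CFIm25 KO and 1023 and 972.7 bp in control, which is 91.7 bp further downstream in CFIm25 KO. The middle site had 22, 3 and 7 reads in CFIm25 KO and 9 and 10 in control. A row without a gene name, 5 bp from the annotated end of CHMP2B, held 16, 5 and 6 reads in CFIm25 KO and 5 and 9 in control and was left out.

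The proximal site of CHMP2B had 4.53, 3.85 and 6.42 CPM in CFIm25 KO, against 8.73 and 8.62 CPM in control, with a log2 fold change of -0.82 ± 0.30 (SE). Its distal site had 42.0, 22.95 and 33.5 CPM in CFIm25 KO, against 37.7 and 29.5 CPM in control, and these values overlapped. The whole gene stood at 55.0, 30.1 and 46.3 CPM in CFIm25 KO and at 53.9 and 44.5 CPM in control. CFIm25 KO 2 was the lowest of the 5 libraries and CFIm25 KO 1 the highest, and the log2 fold change of -0.17 ± 0.24 (SE) became 0.04 without CFIm25 KO 2.

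CHMP1A, CHMP5 and VPS4B each have 2 sites, and their proximal shares overlapped between the groups. CHMP1A, a subunit that also binds VPS4, ended at 89644917 and 89644436 on the minus strand of chromosome 16, sites 481 bp apart of which the distal one lies 1 bp from the annotated end. Its proximal share was 19.3%, 15.8% and 24.2% in CFIm25 KO and 19.2% and 22.02% in control, with a fitted shift of -0.08 ± 0.25 (SE). The highest and the lowest CHMP1A share were thus both in CFIm25 KO clones.

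VPS4B, 1 of the 2 ATPases, ended at 63389305 and 63389194 on the minus strand of chromosome 18, only 111 bp apart. Its proximal share was 48.6%, 41.1% and 51.9% in CFIm25 KO and 40.2% and 48.9% in control, with a fitted shift of 0.15 ± 0.33 (SE). With 90 to 177 reads per library, the Wilson intervals of the VPS4B shares were 14.6 to 20.2 percentage points wide. CHMP5, a subunit that binds the VPS4 cofactor VTA1, used almost only its distal site at 33281509 on the plus strand of chromosome 9. The site 347 bp upstream of it held 1.56%, 1.71% and 2.84% of the reads in CFIm25 KO and 2.10% and 3.01% in control, under the 5% that a site had to hold for the pair to be fitted.

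CHMP4B and VPS4A had 1 site each and so no share to compare. The CHMP4B site at 33854363 on the plus strand of chromosome 20 lies 3 bp from the annotated end. The VPS4A site at 69325041 on the plus strand of chromosome 16 lies 1898 bp upstream of the annotated end. Across the members, the proximal shares did not overlap between the groups in 2 of 4 testable pairs, against 30.6% of all pairs. Of the 4 fitted shifts 2 were above 0 and 2 below, with a median of 0.03, while 42.5% of all pairs had a shift above 0 and their median was -0.09.

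**Figure D3:**
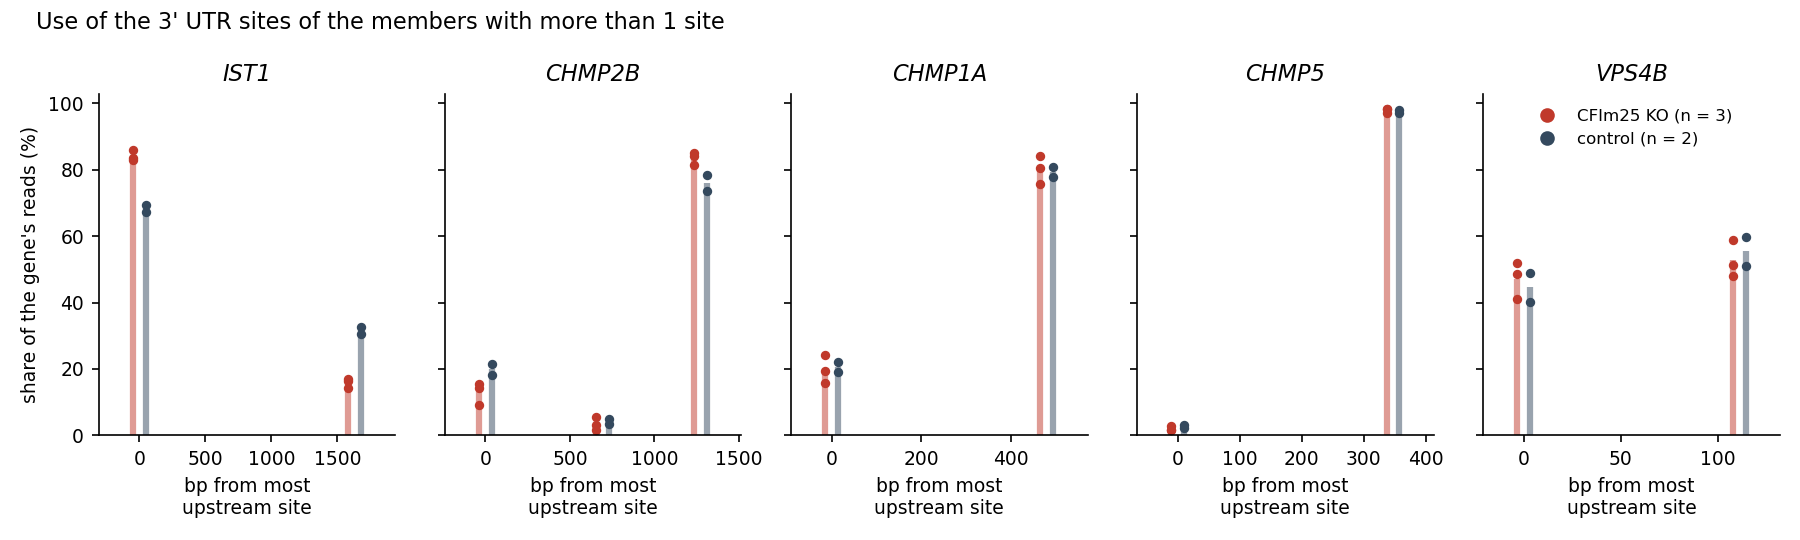
Share of the reads of a gene in percent at each named 3' UTR site, by distance in bp from its most upstream site, for the 5 members with more than 1 site. Points are libraries and bars are means of CFIm25 KO (red) and control (blue-grey). The upstream share of IST1 is 84.1% in CFIm25 KO and 68.4% in control. For the outer sites of CHMP2B the upstream share of the pair is 13.4% in CFIm25 KO and 20.7% in control. That difference did not pass the adjusted threshold, from which nothing is read, since the members were chosen with this contrast known. The points of the groups overlap in CHMP1A, CHMP5 and VPS4B.

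The 7 genes differed in level. Reads come from the poly(A) end only, so a level is a number of 3' ends and was not divided by length. Fewer cells of a type and less RNA per cell cannot be told apart in these bulk libraries. By the mean in CFIm25 KO the order was VPS4A (238.1 CPM), IST1 (149.3), CHMP5 (134.2), CHMP4B (118.2), CHMP1A (102.1), CHMP2B (43.8) and VPS4B (23.2), and the control means of 241.6, 151.4, 133.1, 113.9, 92.0, 49.2 and 19.7 CPM gave the same order. In CFIm25 KO the ranges of IST1 and CHMP5 and those of CHMP5 and CHMP4B overlapped, so these neighbours were not separated. In control no neighbours overlapped, over 2 libraries. VPS4A, the most abundant, stood 10.3-fold above its paralogue VPS4B in CFIm25 KO and 12.3-fold above it in control.

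VPS4A, the more abundant ATPase, had 226.8, 241.9 and 245.4 CPM in CFIm25 KO and 234.7 and 248.5 CPM in control, with a log2 fold change of -0.02 ± 0.11 (SE). VPS4B had 24.8, 23.1 and 21.6 CPM in CFIm25 KO, against 20.2 and 19.2 CPM in control, with a log2 fold change of 0.24 ± 0.18 (SE). The VPS4B values did not overlap between the groups, whereas those of VPS4A did. CHMP1A likewise did not overlap, with 93.7, 104.8 and 107.8 CPM in CFIm25 KO, against 91.1 and 92.9 CPM in control, and a log2 fold change of 0.15 ± 0.13 (SE). The gap between the lowest CFIm25 KO and the highest control library was small for both genes.

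CHMP4B, the main filament subunit, had 109.7, 129.0 and 115.8 CPM in CFIm25 KO and 114.9 and 113.0 CPM in control, with a log2 fold change of 0.05 ± 0.13 (SE). CHMP5 had 144.2, 124.4 and 134.0 CPM in CFIm25 KO and 138.8 and 127.4 CPM in control, with a log2 fold change of 0.01 ± 0.12 (SE). Both genes overlapped between the groups. All 7 genes passed the filter on low counts. Values did not overlap in 2 of 7 genes, against 24.5% of all genes tested, and in 5 of 13 sites, against 25.9% of all sites.

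Of the 7 genes 0 passed the adjusted threshold of edgeR, where 0.0508% of 11810 genes did, 0 had an unadjusted p under 0.05, where 7.13% of genes did, and 0 passed with DESeq2, where 0.213% did. Of the 13 sites 1, the distal site of IST1, passed with edgeR, where 0.113% of 24804 sites did, and with DESeq2, where 0.388% did. An unadjusted p under 0.05 was reached by 2 of the 13, where 8.08% of sites did. The count fell to 0 of 13 without a filter on low counts and without control 1, control 2 or CFIm25 KO 1. Nothing is read from these counts, since the contrast was known when the genes were chosen. The median log2 fold change of the 7 genes was 0.01, with 4 above 0 and 3 below, beside a median of 0.01 over all genes.

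**Figure D4:**
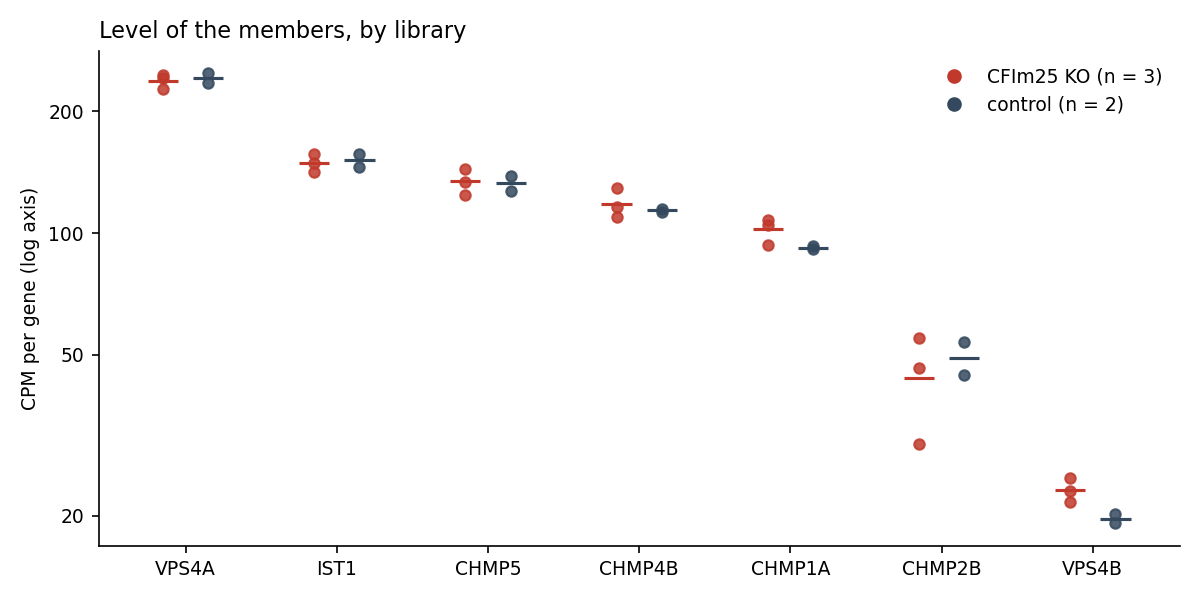
CPM per gene on a log axis in each CFIm25 KO (red, n = 3) and control (blue-grey, n = 2) library, with group means as lines, in the order of the CFIm25 KO mean. IST1 lies at 142.0 to 157.0 CPM in CFIm25 KO and at 146.1 and 156.6 CPM in control, and only CHMP1A and VPS4B show no overlap.

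CHMP2A, the close relative of CHMP2B, could be followed only through a row that carries no gene name. That row lies at 58551566 on the minus strand of chromosome 19, 0 bp from the annotated end of CHMP2A in the RefSeq annotation of GRCh38. It held 1466, 1110 and 1071 reads in CFIm25 KO and 989 and 844 in control. At 184.5, 164.3 and 190.9 CPM in CFIm25 KO and 183.8 and 161.6 CPM in control, the groups overlapped, and the log2 fold change was 0.06 ± 0.13 (SE). If these reads are those of CHMP2A, they exceed the site levels of every named member except VPS4A.

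The rest of the ESCRT pathway was taken as a list of 36 genes, of which 34 had a row (not STAM2 or CHMP4C) and 33 could be tested. In the edgeR test 0 of 33 passed the adjusted threshold, where 0.0508% of all genes did, and 2 had an unadjusted p under 0.05, where 7.13% of all genes did. DESeq2 called 0, where it called 0.213% of all genes. The fitted value was above 0 in 23 genes and below 0 in 10, with a median of 0.12, where 51.5% of all genes lay above 0. Values did not overlap between the groups in 8 of 33 genes, close to the 24.5% of all genes. By complex, the median was 0.21 over 2 tested ESCRT-0 genes, 0.23 over 10 ESCRT-I genes, 0.12 over 3 ESCRT-II genes, 0.12 over 5 other ESCRT-III genes and 0.03 over 13 partners and regulators.

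The smallest p-values of the list belonged to VPS28, VPS37D and MITD1. VPS28, a core subunit of ESCRT-I, had 46.7, 53.4 and 42.3 CPM in CFIm25 KO, against 36.6 and 34.7 CPM in control, with a log2 fold change of 0.41 ± 0.16 (SE; edgeR adjusted p = 0.629). VPS37D, a further ESCRT-I subunit, had 6.59, 7.53 and 4.21 CPM in CFIm25 KO, against 2.71 and 3.62 CPM in control, with a log2 fold change of 0.96 ± 0.37 (SE; edgeR adjusted p = 0.635) from 13 to 47 reads per library. MITD1, which binds ESCRT-III tails during cell division, had 44.3, 33.1 and 33.3 CPM in CFIm25 KO, against 52.2 and 43.7 CPM in control, with a log2 fold change of -0.38 ± 0.18 (SE; edgeR adjusted p = 0.697). The ranges of VPS28 and VPS37D did not overlap between the groups and those of MITD1 did, and none of these differences held after adjustment.

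**Figure D5:**
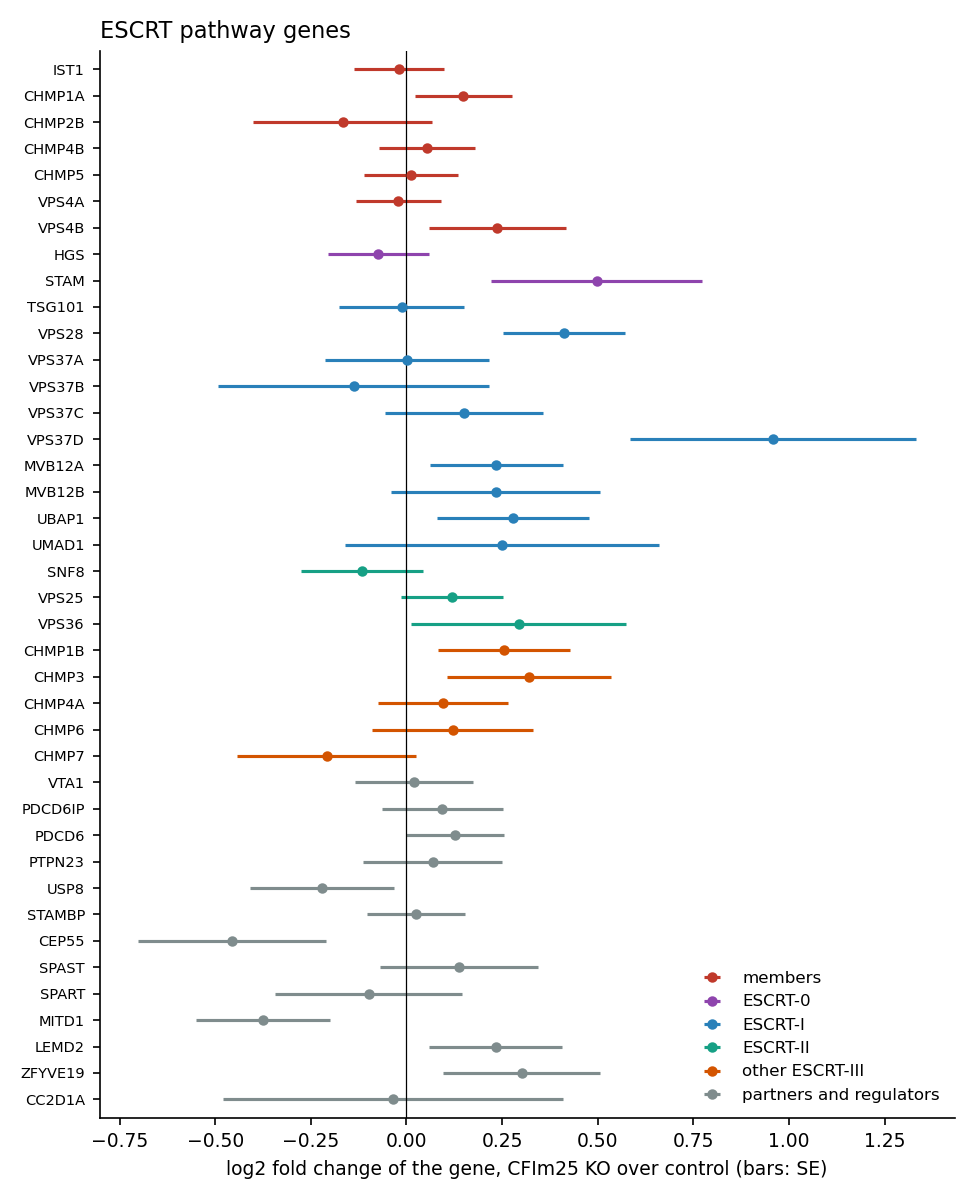
Log2 fold change of the gene level, CFIm25 KO over control, with its SE, for the 7 members and 33 other ESCRT genes grouped by complex. The members lie between -0.17 and 0.24, and the other genes between -0.46 and 0.96.

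Of the other ESCRT genes, 16 had a testable pair of 3' UTR sites. With edgeR 0 of 16 passed the adjusted threshold, where 0.152% of all pairs did, and 1 had an unadjusted p under 0.05, where 10.6% of all pairs did. Limma called 0, where it called 0.0913% of all pairs. Fitted shifts were above 0 in 7 and below 0 in 9, with a median of -0.02. CHMP3, an ESCRT-III subunit that pairs with CHMP2A, had the smallest p. Its proximal share was 40.7%, 35.5% and 39.2% in CFIm25 KO, against 70.2% and 46.8% in control, with a shift of -1.18 ± 0.48 (SE; edgeR adjusted p = 0.378). The 2 controls of CHMP3 differed from each other by more than control 2 differed from any CFIm25 KO library.

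VPS36, an ESCRT-II subunit, had proximal shares of 20.9%, 15.8% and 27.6% in CFIm25 KO and 17.5% and 6% in control, with a shift of 0.87 ± 0.66 (SE; edgeR adjusted p = 0.690). CHMP4A, a paralogue of CHMP4B, had 19.0%, 18.7% and 18.6% in CFIm25 KO and 14.7% and 15.6% in control, with a shift of 0.38 ± 0.33 (SE; edgeR adjusted p = 0.745). The CHMP4A shares did not overlap but lay within each other's counting intervals, and the VPS36 shares overlapped. CHMP1B, the subunit with which IST1 forms joint filaments, had a shift of -0.35 ± 0.39 (SE; edgeR adjusted p = 0.816) and a log2 fold change of the gene of 0.26 ± 0.17 (SE; edgeR adjusted p = 0.831). It was named for this role after its values were seen. Of the 16 other ESCRT pairs 0 passed the threshold, near the 0.152% of all pairs, so nothing about IST1 is read from that count. Their fitted shifts went both ways, with 7 above 0 and 9 below.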

How the data were processed

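3'-seq libraries of H9 cells (3 CFIm25 KO, 2 control) were analysed. The authors mapped the reverse complement of each read with Bowtie2 (version not given in the sources used here). The mapped 3' end marked the poly(A) junction, ends likely due to internal priming were discarded, and nearby ends were merged into sites. They deposited for each site a raw read count and RPM per library (per 1000000 of a total of 5398858 to 8057461 reads), the RPM sum as a score (at least 5 at every site), and their own fold ratio and p-value, which were not used. The labels name hg19, but in GRCh38 the named gene was at most 5000 bp away for 98.85% of sites, against 12.47% in GRCh37, so positions are GRCh38 and guides GRCh37. No 3' UTR sequence is printed.

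Counts per gene were summed over its sites. For genes and sites, the two-sided quasi-likelihood F test of edgeR 4.0.16 (R 4.3.3) was run in its robust form after filterByExpr and TMM scaling. Pairs are the 2 3' UTR sites of highest mean RPM per gene, each holding at least 5% of the pair, fitted with diffSpliceDGE without a library term. P-values were Benjamini-Hochberg adjusted over all features (threshold 0.05). DESeq2 1.42.0, limma 3.58.1, other scalings and filters, a replicate block and leaving out each library were alternatives. The scripts were tested on simulated counts with a fixed spread between libraries, which checks the code and not how the fits handle differences between these clones.

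Replicates are clones, and their counts differed by more than sampling noise. The chi-square per degree of freedom was 4.95 between the 2 controls and 11.67 to 17.27 between CFIm25 KO libraries. Reads carry no molecular identifiers, so Wilson intervals cover counting error only. Members and lists were chosen with earlier results of these data known. Named were the members, NUDT21, the 3 other ESCRT genes of smallest p in each fit, as none passed the threshold, and the 5 pairs nearest to IST1. Marker genes were named after their values were seen.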

Additional observations from a re-analysis of the deposited data

How the results depend on the processing

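The number of genes past the threshold was 6, and it was 10 with library totals only, 27 with DESeq2 and between 2 and 124 with 1 library left out, the highest without CFIm25 KO 3. For sites it was 28, with 78 for DESeq2 and 29 to 306 with 1 library left out. For tandem pairs it was 5, with 3 for library totals only, 3 for limma on the library log2 ratios and 4 to 24 with 1 library left out, again highest without CFIm25 KO 3. The number of member pairs past the threshold was 1, with a range of 0 to 1 with 1 library left out, and that of member sites was 1, with 0 without a filter on low counts and 0 to 1 with 1 library left out. The log2 ratio difference of IST1 was 1.29, with 1.20 to 1.36 in the same way, and its mean read position differed by -256.9 bp, with -273.3 to -240.5 bp. No other ESCRT gene or pair passed under any alternative run. Replicate numbers are shared by the labels for only 2 pairs of libraries, whose deviations correlated at 0.07 and 0.04. With only 2 controls their deviations mirror each other, so these correlations cannot settle whether equal numbers mark a pairing. The labels give no pairing beyond the number. The fit with the replicate block called 633 genes, 651 sites and 25 pairs, and the cause was not tested. Over 169 values of members under alternatives, 169 moved by at most 1 SD, the SD between libraries within the groups. Leaving out 1 library mostly cannot move a group mean by more than that, so nothing is read from this count. The sign of the gene log2 fold change turned in 2 of 10 alternatives for IST1, 1 for CHMP2B, 1 for CHMP4B, 3 for CHMP5 and 2 for VPS4A, and the sign of the pair shift in 2 of 11 for CHMP1A and 1 for VPS4B. Depth limits CHMP2B, VPS4B and CHMP5 most, where a site held as few as 3, 39 and 13 reads.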
